A study of Mus musculus with 6 samples.

Results

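The VEGF and angiopoietin axis comprises 10 genes of the deposited table: the VEGF family ligands Vegfa, Vegfb, Vegfc and Pgf, their receptors Flt1, Kdr and Flt4, the angiopoietins Angpt1 and Angpt2, and the angiopoietin receptor Tek. They were taken by gene symbol, and all 10 were found among the 16763 genes listed. RNA had been sequenced from tumors of BALB/c mice in which breast cancer had been induced with 4T1 cells, an established mammary carcinoma line of that strain. The model group (3 libraries) carried such tumors, and its sample descriptions name no DMDD. The DMDD liposome group (3 libraries) carried them and was given DMDD packed in liposomes, small lipid vesicles that carry a compound. The labels name DMDD by its abbreviation alone and give the sex as male, and the sources used here do not give the age, dose, treatment time or what the model mice received.

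VEGF family ligands are secreted proteins that bind receptor tyrosine kinases of vessel cells. VEGF-A signals mainly through Kdr (VEGFR2), the receptor that drives sprouting of blood vessels, while Flt1 (VEGFR1) binds VEGF-A, VEGF-B and placental growth factor and can act as a trap. VEGF-C acts on Flt4 (VEGFR3), best known for the growth of lymphatic vessels. The angiopoietins share the receptor Tek (Tie2): Angpt1, made largely by cells around vessels, activates it and stabilizes vessels, whereas Angpt2, made by endothelium, often opposes Angpt1 and loosens vessels.

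Vegfc was the VEGF ligand whose libraries separated by group, and Vegfa is the ligand best known in tumor vessels, so the 250 bases before the start of each gene are shown. Both sequences are RefSeq's, on build GRCm38.p6, which is not the build of the counts (mm9), and both run 5′ to 3′ on the gene's strand. Vegfc lies on the plus strand at chr8:54077282-54077531 and Vegfa on the minus strand at chr17:46032378-46032627. Capitals mark GC boxes, the letters GGGCGG or their reverse complement CCGCCC.
Vegfc: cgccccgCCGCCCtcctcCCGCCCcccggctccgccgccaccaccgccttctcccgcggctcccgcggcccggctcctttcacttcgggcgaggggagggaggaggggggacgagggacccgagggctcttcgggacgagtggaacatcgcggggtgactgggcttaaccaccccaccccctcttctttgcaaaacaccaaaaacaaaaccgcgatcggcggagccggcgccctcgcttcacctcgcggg
Vegfa: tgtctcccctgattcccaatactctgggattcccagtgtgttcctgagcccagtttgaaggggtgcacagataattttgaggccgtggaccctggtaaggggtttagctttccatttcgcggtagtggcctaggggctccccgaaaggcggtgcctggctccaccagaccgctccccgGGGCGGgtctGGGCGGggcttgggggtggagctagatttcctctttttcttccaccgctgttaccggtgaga

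Each of the 2 windows held 2 GC boxes, in a base composition of 71.6% G and C for Vegfc and 59.2% for Vegfa. Of the 10 members, 8 had entries in the promoter table, with 10 windows between them, and Angpt1 and Angpt2 had none. A GC box on either strand was found in 8 of these 10 windows, from 7 members, and in 32.7% of all 32851 windows of that length. ACGTG or its reverse complement CACGT, the core letters of the hypoxia response element, was found in 1 of the 10, at a second start of Vegfa, and in 16.6% of all windows. These are matches of letters, and the motifs may overlap others. The windows were not matched for base composition, so these shares are not a test of enrichment.

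Total counts ran from 13037500 to 15616840 per library. Levels of a gene are given as CPM, the count relative to the total of the library after TMM scaling, and 3 counts in a library stood for 0.192 to 0.230 CPM. Levels of different genes are compared as FPKM, which also divides by gene length. The 6 libraries are separate samples by their labels, but nothing says which mouse gave which, so p-values measure only how far these samples differ, and that spread may be technical. Values of a group are listed in the order of replicates 1, 2 and 3. Endothelial markers were detected in every library (18 of 18 genes tested), as were markers of the carcinoma cells (10 of 10).

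The design sets tumors of treated mice against model tumors. Within the axis, Angpt1 and Vegfc were higher in each DMDD liposome library than in any model library, and the ratio of Angpt2 to Angpt1 was lower in each. Angpt2, Vegfa, Pgf and Vegfb, and the receptors Flt1, Kdr, Flt4 and Tek, overlapped between the groups. None of the 10 genes passed edgeR's quasi-likelihood test after Benjamini-Hochberg adjustment over all 12891 genes tested (adjusted p from 0.638 to 0.990), a test that called 0 genes (0%) with a smallest adjusted p of 0.603. At an unadjusted p under 0.05 stood 2 of the 10 members, both higher in DMDD liposome, beside 986 genes in all (7.65%). The groups did not overlap for 2 of the 10, beside 12.9% of all genes tested in either direction with 7.21% in the higher and 5.66% in the lower direction. DESeq2's test of the same counts passed 0 of the 10, beside 0.408% of the genes to which it gave an adjusted p. The authors' deposited table also called 0 of the 10, beside 0.346% of its genes. The plot of CPM by library shows the 10 genes side by side.

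**Figure D1:**
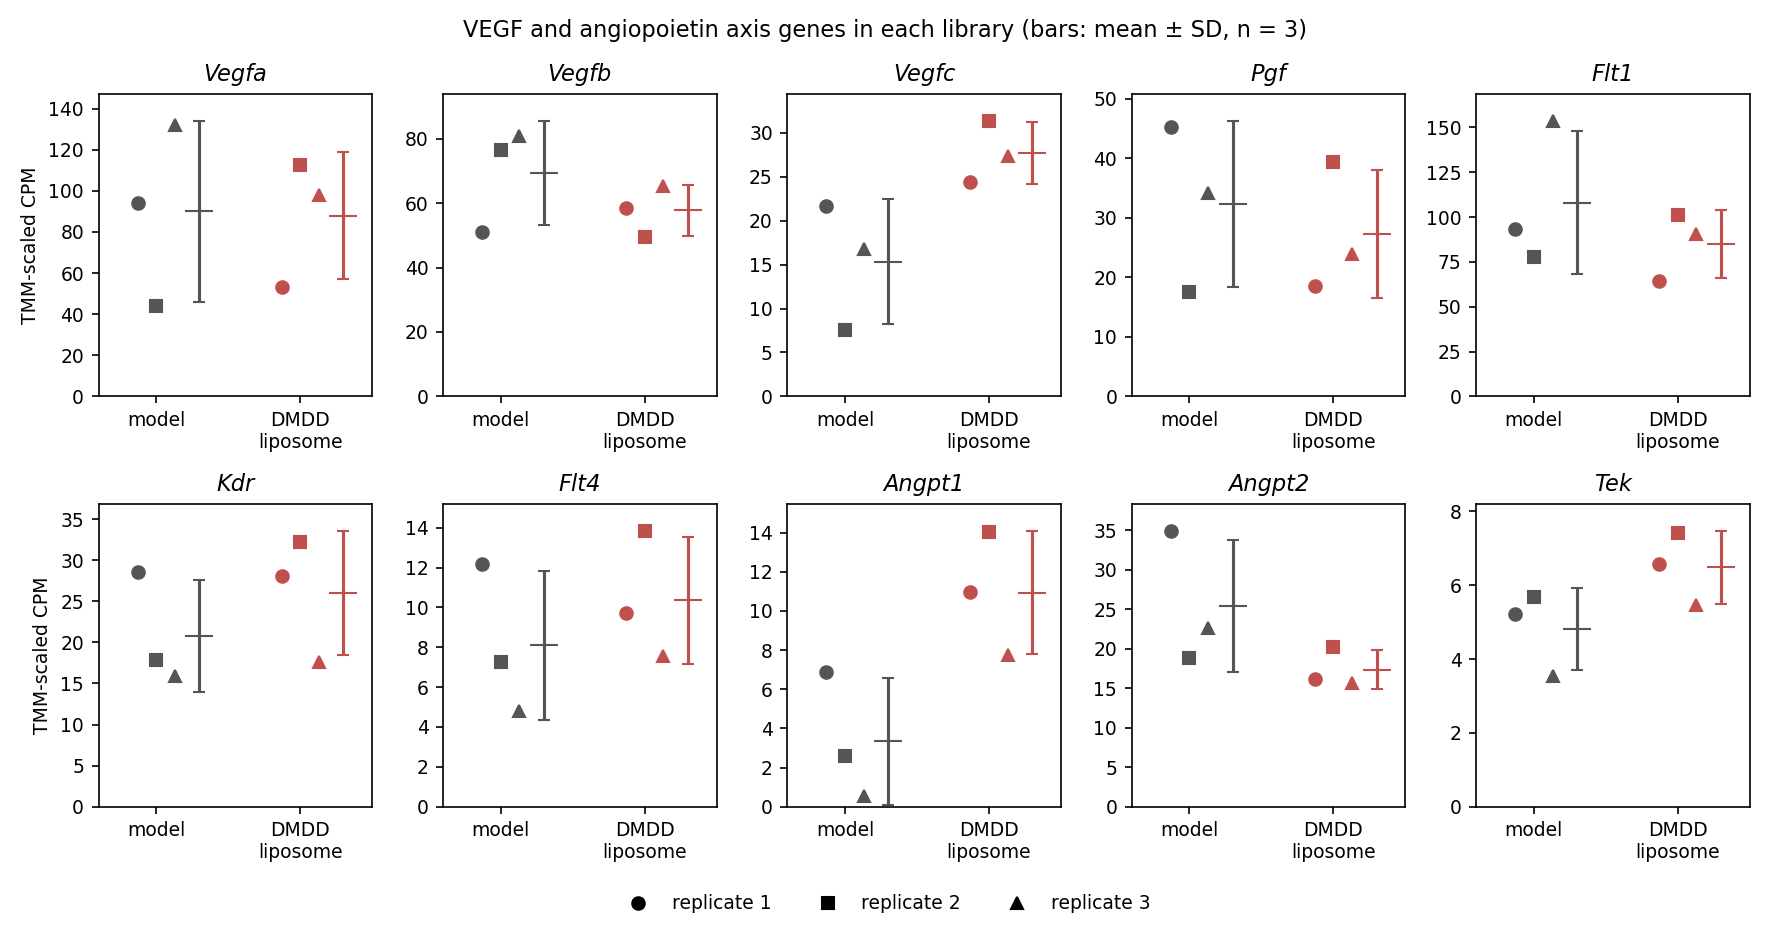
TMM-scaled CPM (linear axis from 0) of the 10 genes, 1 panel each, with a point per library and a bar for mean ± SD (n = 3 per group). The DMDD liposome points lie above all model points for Vegfc and Angpt1, and the groups overlap in the other 8 panels.

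Per length, Vegfb, Vegfa and Pgf had the highest means of the axis over the 6 libraries. This order rests on 1 length per gene, from 1281 bases for Vegfb to 10961 for Flt1. By CPM the mean of Flt1 (108 in model, 85.2 in DMDD liposome) was above that of Vegfb (69.4 and 57.8). Vegfb, whose product binds Flt1, came first at 49.6 ± 9.82 FPKM (SD over 6 libraries) and lay above Vegfa in all 6 libraries. Vegfa followed at 25.1 ± 9.28 FPKM and lay above Pgf in all 6. Pgf stood at 14.3 ± 5.40 FPKM, above Vegfc in 5 of 6 libraries. Vegfc (8.79 ± 3.45 FPKM) and Flt1 (8.77 ± 2.64 FPKM) were next and could not be put in order, as Vegfc was above Flt1 in 4 of 6 libraries. Their order differed by group: Vegfc averaged 6.21 FPKM in model tumors, below Flt1 (9.75 FPKM) and Angpt2 (7.11 FPKM), and 11.4 FPKM in DMDD liposome tumors, above both (7.80 and 4.89 FPKM). Angpt2 (6.0 ± 1.97 FPKM) was above Kdr (3.95 ± 1.20 FPKM) in 5 of 6, and Kdr was above Angpt1 in all 6. At the low end, Angpt1 (1.68 ± 1.18 FPKM) and Flt4 (1.48 ± 0.53 FPKM) exchanged places by group, as Flt4 was above Angpt1 in all 3 model libraries and below it in all 3 DMDD liposome libraries. Tek had the lowest mean over the 6 libraries, at 1.20 ± 0.29 FPKM. In model tumors its mean (1.02 FPKM) was above that of Angpt1 (0.78 FPKM), which lay below Tek in model replicates 2 and 3.

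The angiopoietins showed the largest difference of the axis. Angpt1, the activating ligand of Tek, measured 6.90, 2.58 and 0.525 CPM in model tumors and 11.0, 14.1 and 7.77 CPM in DMDD liposome tumors. Its counts were 90, 40 and 8 against 155, 186 and 114. All 3 DMDD liposome libraries were above the highest model library, model replicate 1, and model replicate 3 was far below the other 5. The separation was narrow, with 6.90 CPM in model replicate 1 and 7.77 CPM in DMDD liposome replicate 3. Their 90 and 114 counts have 95% exact Poisson intervals that overlap (72.4 to 111 and 94.0 to 137). The 8 counts of model replicate 3 have a 95% exact Poisson interval of 3.45 to 15.8 and the 40 of model replicate 2 one of 28.6 to 54.5, which cover counting error only. The log2 fold change of DMDD liposome over model was 1.72 ± 0.72 (SE, 95% interval 0.05 to 3.40, edgeR adjusted p = 0.644). Without model replicate 3 it was 1.20 and without model replicate 1 it was 2.81 (edgeR adjusted p = 0.0976), the 2 ends of the range over libraries left out. In the authors' deposited table Angpt1 stood at -1.71 for model over DMDD liposome (adjusted p = 0.341).

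Markers of pericytes and smooth muscle, cells around vessels that make Angpt1, were read beside it. Of the 12 genes of that list 10 had a positive log2 fold change, with a median of 0.38, and 0 passed edgeR's adjusted test. Summed over the list they measured 507, 384 and 339 CPM in model tumors and 465, 917 and 444 CPM in DMDD liposome tumors. The list was lowest in model replicate 3 and highest in DMDD liposome replicate 2, as Angpt1 was, but unlike Angpt1 it overlapped between the groups. Notch3, a receptor of mural cells, went the other way at -0.77 ± 0.20 (edgeR adjusted p = 0.626), with no overlap, while Cnn1, a contractile protein of smooth muscle, stood at 1.64 ± 0.55. Des, shared by pericytes and skeletal muscle, stood at 2.51 ± 0.96. Skeletal muscle markers summed to 48.8 to 64.6 CPM in model and to 150, 35.1 and 293 CPM in DMDD liposome tumors. The part of these cells in the Angpt1 values was not tested, and in such tissue samples more cells of a type and more RNA per cell cannot be told apart.

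Angpt2, the context-dependent antagonist, measured 34.9, 18.9 and 22.7 CPM in model tumors and 16.2, 20.2 and 15.6 CPM in DMDD liposome tumors. Model replicate 1 was the high library, and the groups overlapped because DMDD liposome replicate 2 lay above model replicate 2. The log2 fold change was -0.55 ± 0.24 (SE, 95% interval -1.12 to 0.01, edgeR adjusted p = 0.644), and it ran from -0.26 without model replicate 1 to -0.74 without model replicate 2. In the GENCODE M21 annotation Angpt2 overlaps Mcph1 on the opposite strand, and no source used here says whether reads were counted by strand, so reads of the pair may not be told apart. Mcph1 had 297 to 453 counts per library and a log2 fold change of -0.25 ± 0.13. Angpt1 overlaps the antisense gene Gm17473, which was not among the genes analysed here.

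The balance of the angiopoietins was taken as the ratio of their FPKM. Angpt2 exceeded Angpt1 in all 6 libraries, by 6.05-fold, 8.77-fold and 51.6-fold in model tumors and by 1.77-fold, 1.72-fold and 2.40-fold in DMDD liposome tumors. The 3 DMDD liposome ratios were thus all below the 3 model ratios. On the log2 scale the ratio was 3.81 ± 1.65 in model and 0.96 ± 0.27 in DMDD liposome (SD, n = 3 each), a difference of -2.85 (exact permutation test, two-sided, p = 0.1, the smallest p that 3 libraries against 3 allow). Without model replicate 3 the difference was -1.91, and without model replicate 1 it was -3.45. The ratio holds the Angpt1 values above and is not a second line of evidence.

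**Figure D2:**
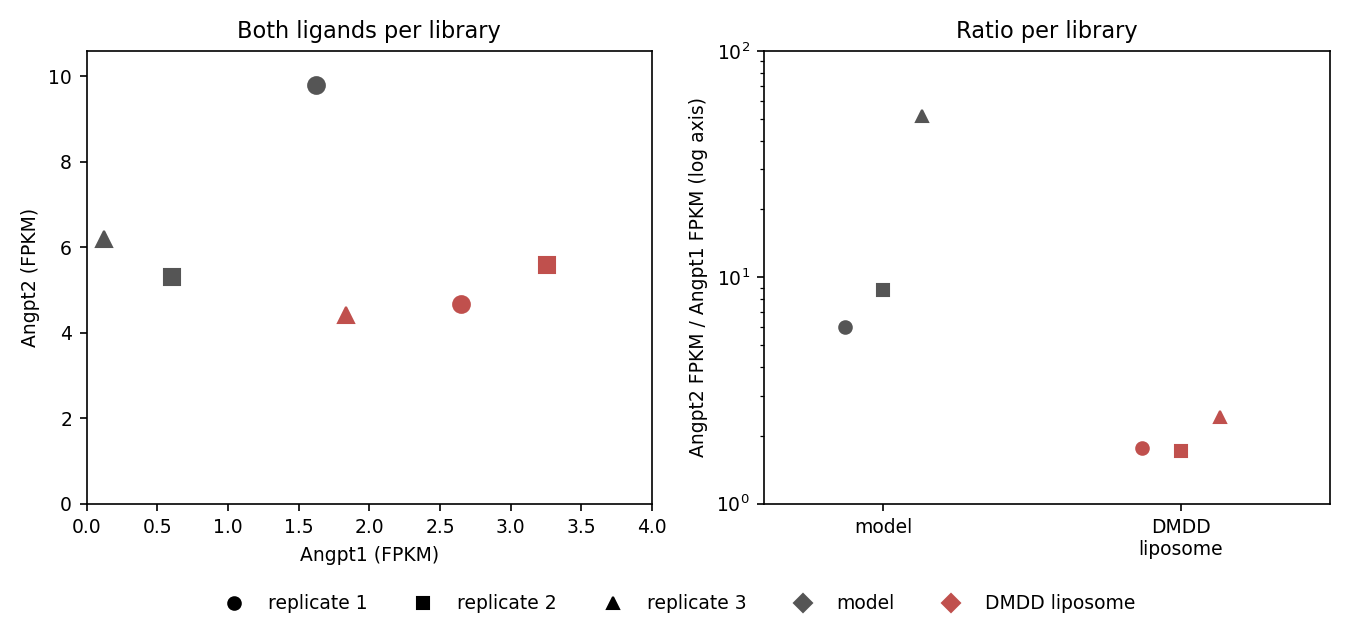
Left, FPKM of Angpt1 (x) and Angpt2 (y), 1 point per library. Right, the ratio of Angpt2 to Angpt1 FPKM on a log axis, by group. The DMDD liposome ratios lie between 1.72 and 2.40, and the model ratios between 6.05 and 51.6.

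Tek, the receptor for both angiopoietins, was low in every library. It measured 5.21, 5.67 and 3.55 CPM in model tumors and 6.59, 7.40 and 5.45 CPM in DMDD liposome tumors. DMDD liposome replicate 3 lay below model replicate 2, so the groups overlapped, and the log2 fold change was 0.43 ± 0.27 (edgeR adjusted p = 0.730). It ran from 0.24 without model replicate 3 to 0.56 without model replicate 2.

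Among the VEGF ligands, Vegfc, the ligand of Flt4, separated the groups. It measured 21.7, 7.61 and 16.7 CPM in model tumors and 24.4, 31.3 and 27.3 CPM in DMDD liposome tumors. The gap between the groups was narrow, since model replicate 1 came close to DMDD liposome replicate 1, and model replicate 2 was the low library. The log2 fold change was 0.85 ± 0.34 (SE, 95% interval 0.06 to 1.65, 1.81-fold, edgeR adjusted p = 0.638). Leaving out single libraries moved it between 0.52, without model replicate 2, and 1.18, without model replicate 1. In the authors' deposited table it stood at -0.84 for model over DMDD liposome (adjusted p = 0.402). As a share of the summed FPKM of the 4 ligands, Vegfc took 6.12% ± 2.75 in model and 12.0% ± 0.86 in DMDD liposome (SD, n = 3 each), with 9.13%, 3.71% and 5.53% in model and 12.5%, 12.5% and 11.0% in DMDD liposome.

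Vegfa, the main ligand of Kdr and a target of hypoxia-inducible factors, varied more between libraries than between groups. It measured 94.0, 44.2 and 132 CPM in model tumors and 53.3, 113 and 97.9 CPM in DMDD liposome tumors. The highest and the lowest library were both of the model group. The log2 fold change was -0.03 ± 0.41 (SE, 95% interval -0.98 to 0.92, edgeR adjusted p = 0.990), and its sign turned when single libraries were left out (-0.37 to 0.34). The counts are per gene and do not separate the splice forms of Vegfa, nor the soluble from the membrane form of Flt1.

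Genes induced by low oxygen were read beside Vegfa. Of the 20 hypoxia targets tested, 13 had a negative log2 fold change, with a median of -0.27, and 0 passed the adjusted test. Car9, a carbonic anhydrase of hypoxic cells, had no overlap between the groups and stood at -0.69 ± 0.14 (edgeR adjusted p = 0.626). Ldha, which makes lactate, stood at -0.37 ± 0.16, also without overlap. These were the only 2 of the 20 without overlap, beside 5.66% of all genes tested in the lower direction. The glucose transporter Slc2a1 stood at -0.55 ± 0.25. The list summed to 4534, 3780 and 5354 CPM in model tumors and to 3045, 4117 and 3751 CPM in DMDD liposome tumors. Model replicate 3 was the highest library for the list and for Vegfa, while the lowest was DMDD liposome replicate 1 for the list and model replicate 2 for Vegfa.

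Pgf, the placental growth factor that binds Flt1, measured 45.2, 17.5 and 34.1 CPM in model tumors and 18.6, 39.4 and 23.9 CPM in DMDD liposome tumors. Each group held high and low libraries, and the log2 fold change was -0.24 ± 0.38 (edgeR adjusted p = 0.891), running from -0.61 without DMDD liposome replicate 2 to 0.078 without model replicate 1. Vegfb measured 51.0, 76.3 and 80.8 CPM in model and 58.6, 49.5 and 65.3 CPM in DMDD liposome. Model replicates 2 and 3 were above the other 4 libraries, and the log2 fold change was -0.26 ± 0.19 (edgeR adjusted p = 0.771). It ran from -0.44 without model replicate 1 to -0.15 without model replicate 3.

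**Figure D3:**
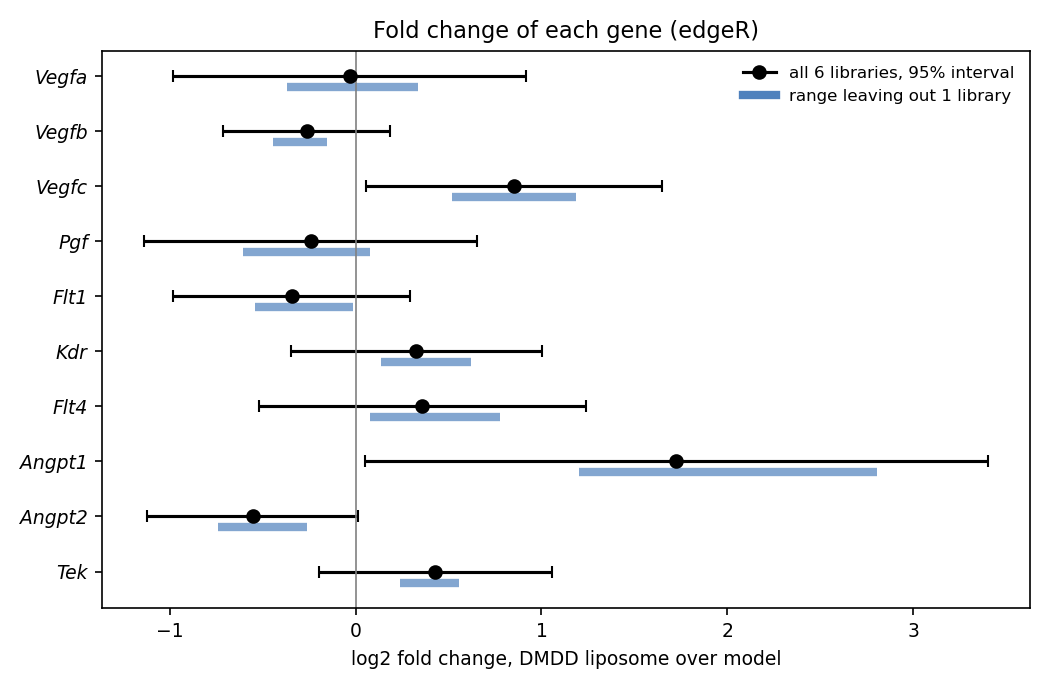
Log2 fold change of DMDD liposome over model for the 10 genes, from edgeR, with 95% intervals (black) and the range of values when 1 library at a time is left out (blue). The intervals of Vegfc (0.06 to 1.65) and Angpt1 (0.05 to 3.40) lie above 0 without adjustment for the number of genes tested, and those of the other 8 genes include 0.

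The VEGF receptors gave no separation of the groups. Flt1 measured 93.1, 77.7 and 154 CPM in model tumors and 64.1, 101.0 and 90.4 CPM in DMDD liposome tumors. Model replicate 3 stood out as the highest library, and the log2 fold change was -0.34 ± 0.27 (edgeR adjusted p = 0.791). It ran from -0.02 without that library to -0.54 without model replicate 2. Kdr measured 28.5, 17.9 and 15.9 CPM in model and 28.1, 32.3 and 17.6 CPM in DMDD liposome. Flt4 had the same 3 libraries on top, with 12.2, 7.29 and 4.79 CPM in model and 9.70, 13.8 and 7.56 CPM in DMDD liposome. For both, model replicate 1 and DMDD liposome replicates 1 and 2 were the high libraries. Their log2 fold changes were 0.33 ± 0.29 and 0.36 ± 0.38 (edgeR adjusted p = 0.811 and 0.838), and without model replicate 1 they were 0.62 and 0.78. At the other end, Kdr was at 0.14 without DMDD liposome replicate 2 and Flt4 at 0.079 without model replicate 3.

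Endothelial markers moved with part of this pattern. Of 18 such genes 15 had a positive log2 fold change, with a median of 0.48, beside 6602 of 12891 and a median of 0.01 over all genes tested. None of the 18 passed edgeR's adjusted test, and 5 stood at an unadjusted p under 0.05, all higher, beside 4.34% of all genes in that direction. Sox18, a transcription factor of endothelium, stood at 1.09 ± 0.30. Egfl7, a secreted endothelial factor, stood at 0.76 ± 0.26 and Ecscr, an endothelial surface protein, at 0.54 ± 0.20. These 3 had the smallest p of the list and no overlap (edgeR adjusted p = 0.626 for each). They were the only 3 of the 18 without overlap, beside 7.21% of all genes tested in the higher direction. Vwf (-0.75 ± 0.48), Sox7 (-0.67 ± 0.38) and Plvap (-0.03 ± 0.20) were negative. Eng, Pecam1 and Cdh5, the highest of the list in CPM, stood at 0.16 ± 0.15, 0.21 ± 0.22 and 0.32 ± 0.36, with overlap. The list summed to 724, 440 and 505 CPM in model tumors and to 643, 735 and 632 CPM in DMDD liposome tumors, so that model replicate 1 lay among the DMDD liposome libraries.

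Each receptor was therefore also expressed as a percent of that endothelial sum. The sum does not weigh the 18 genes equally: Eng had the largest part, with group means of 205 (model) and 228 (DMDD liposome). Pecam1 came next, with means of 74.6 and 86.3. Both had log2 fold changes (0.16 and 0.21) below the median of the list (0.48). Which cells gave the counts of these genes was not tested. Kdr came to 3.94%, 4.06% and 3.15% in model tumors and to 4.38%, 4.39% and 2.79% in DMDD liposome tumors. The log2 difference between the groups was 0.03 (exact permutation test, two-sided, p = 1). Flt4 ranged from 0.949% to 1.68% in model and from 1.20% to 1.88% in DMDD liposome (log2 difference 0.12, exact permutation p = 0.7), and Tek from 0.702% to 1.29% and from 0.863% to 1.02% (log2 difference 0.15, exact permutation p = 0.8). These 3 receptors overlapped between the groups on this scale too, and the sign of each turned when single libraries were left out (-0.085 to 0.25 for Kdr, -0.15 to 0.28 for Flt4 and -0.0026 to 0.44 for Tek). Flt1 was 12.9%, 17.7% and 30.4% of the endothelial sum in model and 9.97%, 13.7% and 14.3% in DMDD liposome (log2 difference -0.61, exact permutation p = 0.3), with the groups overlapping. That difference ran from -0.89 without model replicate 1 to -0.27 without model replicate 3. Adjusted over the 4 receptors each p was 1, and with 3 libraries against 3 none could go below 0.1.

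**Figure D4:**
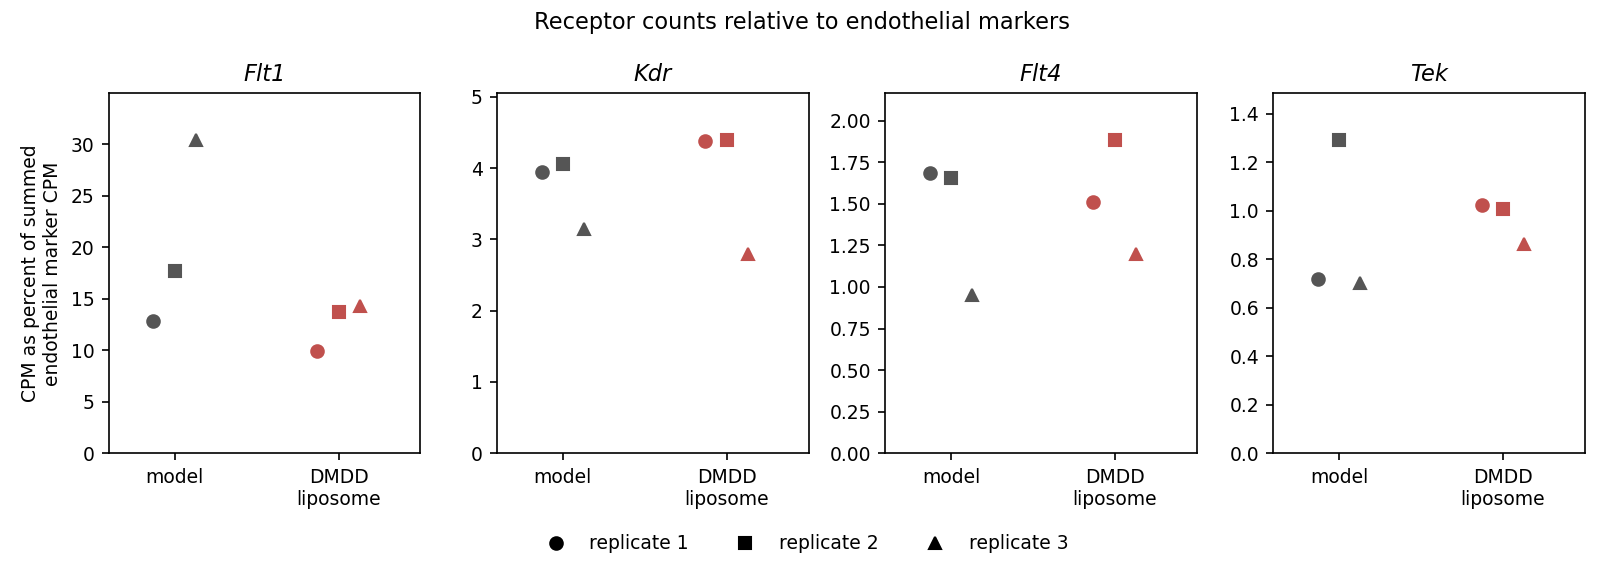
CPM of each receptor as a percent of the summed CPM of 18 endothelial markers (linear axes from 0), 1 point per library by group. The groups overlap in all 4 panels, and model replicate 3 is highest for Flt1 at 30.4%.

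Of 18 partners of these receptors (co-receptors, the phosphatase Ptprb, processing factors and signalling proteins), 16 were tested, 11 with a positive log2 fold change and a median of 0.36, and 0 passed the adjusted test. Vegfd, a further ligand of Flt4, was among the 2 not tested. Nrp2, the co-receptor of Flt4 for VEGF-C, was lower in all 3 DMDD liposome libraries. It measured 248 ± 32.4 CPM there against 321 ± 9.01 CPM in model (SD, n = 3 each). Its log2 fold change was -0.37 ± 0.12 (SE, edgeR adjusted p = 0.626). Flt4 itself averaged 10.4 CPM in DMDD liposome and 8.09 CPM in model. Which cells gave the Nrp2 counts was not tested. Ccbe1, which helps the processing of VEGF-C, stood at -0.51 ± 0.19 with overlapping groups (edgeR adjusted p = 0.629). Dok2, an adaptor that binds active Tek, stood at 0.43 ± 0.13 with no overlap, though it is also made by blood cells. Of the partners, 3 were higher and 2 lower at an unadjusted p under 0.05, beside 4.34% and 3.31% of all genes. Without overlap, 2 were higher and 1 lower, beside 7.21% and 5.66% of all genes tested.

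Of 18 genes of sprouting endothelium and vascular Notch signalling, 17 were tested, 13 of them positive with a median of 0.29, and 0 passed the adjusted test. Aplnr, the apelin receptor of growing vessels, had 107, 200 and 36 counts in model tumors and 459, 383 and 251 in DMDD liposome tumors. The groups did not overlap and the log2 fold change was 1.74 ± 0.54 (edgeR adjusted p = 0.626). Rcan1, a calcineurin inhibitor induced by VEGF, stood at 0.77 ± 0.31 and the Notch ligand Jag1 at -0.50 ± 0.29, both with overlap. Lymphatic endothelial markers gave little to read beside Vegfc and Flt4: 5 of 7 were in the table and 2 were tested, Lyve1 at 0.66 ± 0.44 and Foxc2 at 0.19 ± 0.13. Lyve1 had 15 to 48 counts per library and Foxc2 had 508 to 761, and which cells gave the Foxc2 counts was not tested.

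**Figure D5:**
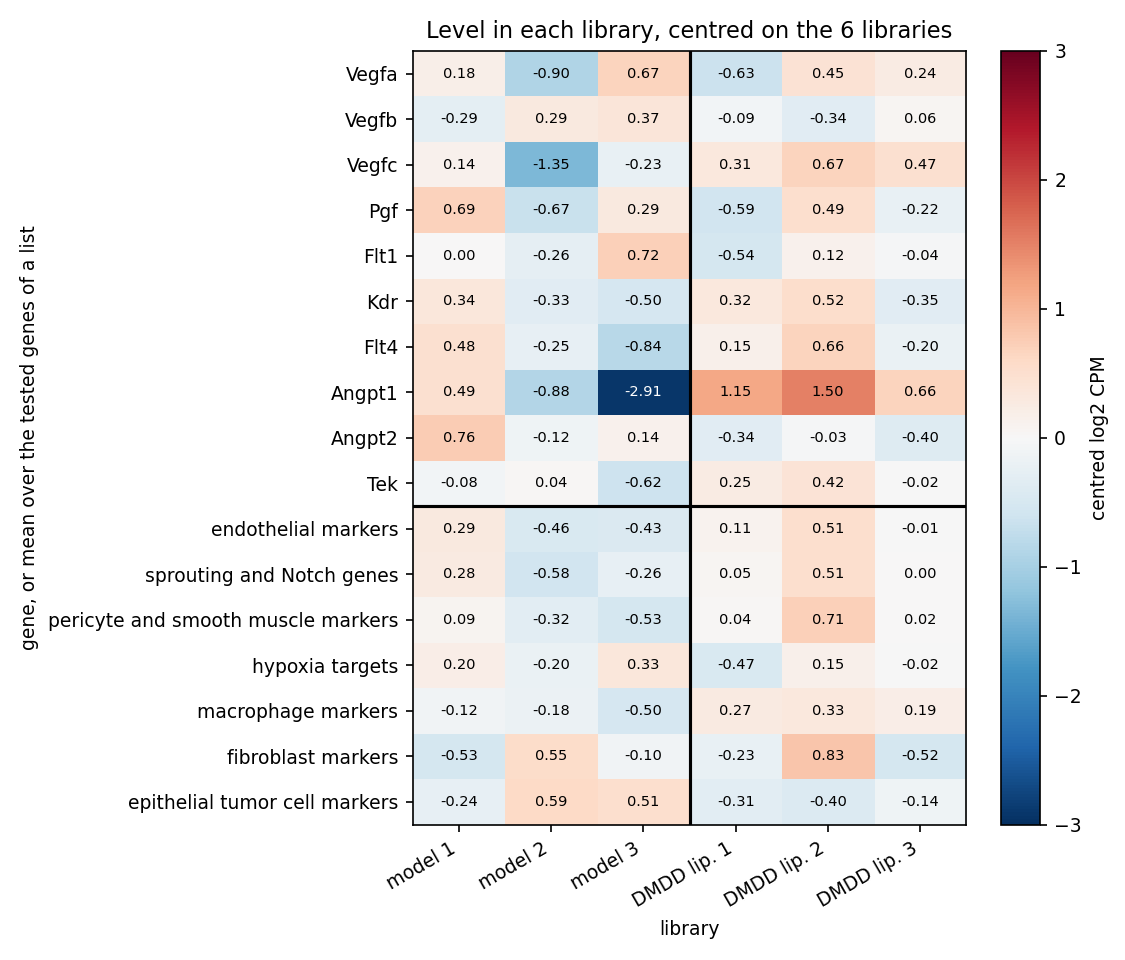
Log2 CPM centred on the mean of the 6 libraries, for the 10 genes (upper rows) and as the mean over the tested genes of 7 lists (lower rows), with each value printed in its cell. Angpt1 in model replicate 3, at -2.91, is the lowest cell, and for Vegfc and Angpt1 model replicate 1 is above 0, as are the 3 DMDD liposome libraries.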

How the data were processed

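Total RNA of tumor tissue had been sequenced as 6 libraries after NEBNext library preparation, per the labels' protocols. The sample descriptions, from which groups were taken, call the animals rats, while organism, strain and gene symbols are those of mouse. The authors deposited whole-number read counts per gene (headed readCount), a normalized signal that is each count divided by 1 factor per library, and FPKM, in which every one of the 16763 genes has 1 length (to 0.01 base) given its counts and the library totals. The authors' deposited log2 values are fold changes of model against DMDD liposome, and their p-values come with DESeq2 and build mm9 named in the submitters' processing notes. The sources used here name no aligner, counter or strand setting.

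Counts were tested with edgeR 4.0.16 in R 4.3.3: filterByExpr (minimum count 10, minimum total 15) kept 12891 genes, and a quasi-likelihood test (two-sided, Benjamini-Hochberg adjustment, threshold 0.05) after TMM scaling compared the groups without a block. SE come from the F statistic. Log2 CPM used a prior count of 2. Single ratios were tested by exact permutation over libraries. Alternatives were DESeq2 1.42.0, limma 3.58.1 (voom), DESeq2 size factors, no filter, a replicate block and each library left out. The tests were tested on simulated data first. Members and all 14 gene lists were chosen with earlier results of these data known. Named from each list are up to 3 tested genes with the smallest p, and for Vegfa and Kdr the 5 genes nearest in pattern. Further named are the negative and the highest endothelial markers, the negative macrophage markers and, for context, Ptprb, Vegfd and Vash1. No pair of libraries held identical counts. Ero1a was read under its older symbol Ero1l.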

Additional observations from a re-analysis of the deposited data

How the results depend on the processing

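No alternative brought any of the 10 genes past the adjusted threshold, and 106 of the 110 values (10 genes under 11 alternatives) kept their direction. The exceptions were Vegfa, at 0.014 with the replicate block, 0.23 without DMDD liposome replicate 1 and 0.34 without model replicate 3, and Pgf, at 0.078 without model replicate 1. Leaving out single libraries, Vegfa ranged from -0.37 to 0.34 and Pgf from -0.61 to 0.078. The number of genes called over the whole table was 0 with edgeR and 59 with DESeq2, and ran from 0 to 112 with single libraries left out, the 112 without model replicate 1. The replicate block called 0 genes and gave Angpt1 2.14 and Vegfc 0.95. The labels do not say that the numbers pair the libraries. Deviations from the group mean correlated at 0.09, 0.11 and 0.12 for same-numbered libraries, and every library correlated best with its own number. With 3 libraries a group some matching must come out best, so these low values cannot show a pairing. Relative to endothelial markers, leaving out single libraries gave -0.085 to 0.25 for Kdr and -0.15 to 0.28 for Flt4. It gave -0.0026 to 0.44 for Tek and -0.89 to -0.27 for Flt1. A mean log2 CPM as denominator gave -0.078 for Kdr, 0.0058 for Flt4, 0.032 for Tek and -0.71 for Flt1. The cause of these turns was not tested. The Angpt2 to Angpt1 difference ran from -3.45 to -1.91. With 3 libraries a group, the SE of the 10 log2 fold changes ran from 0.19 to 0.72, which limits their precision.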

Other observations

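Secreted inhibitors of vessel growth and the oxygen sensing machinery were also read, and neither list had a gene past edgeR's adjusted test. Of the 12 genes listed as inhibitors 11 were tested, 8 with a positive log2 fold change and a median of 0.30. Col18a1, whose product releases endostatin, stood at -0.53 ± 0.24 (edgeR adjusted p = 0.644), with its highest library, model replicate 2, at 12366 counts against 5563 to 7305 in the other 5. Serpinf1, which encodes the inhibitor PEDF, stood at 0.71 ± 0.44. Vash2, at -0.26 ± 0.17, is in the list as a vasohibin, although its product is known to promote vessel growth, unlike that of Vash1. Of 8 oxygen sensing genes 7 were tested, 2 of them positive with a median of -0.03. Hif1a, the oxygen-regulated subunit, stood at 0.26 ± 0.19, its partner Arnt at -0.13 ± 0.11 and the hydroxylase Hif1an at 0.05 ± 0.11.

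Other cell types were read from their marker lists, in which 0 genes passed edgeR's adjusted test. Macrophage markers were positive in 10 of 12 genes, with a median of 0.48, and summed to 1535 to 2813 CPM in model and 2917 to 3940 CPM in DMDD liposome. Mertk, a receptor for dying cells, Lyz2, a lysozyme, and Csf1r, a growth factor receptor, stood at 1.65 ± 0.22, 0.99 ± 0.39 and 0.49 ± 0.22. Carcinoma cell markers were negative in 8 of 10, with a median of -0.58, and summed to 4165 to 7030 CPM against 3865 to 4789 CPM, with Cldn7 at -1.24 ± 0.31, Esrp1 at -0.54 ± 0.16 and Krt14 at -1.69 ± 0.50. Fibroblast markers were positive in 5 of 8, with a median of 0.26 and sums of 3958 to 7354 CPM against 3862 to 10627 CPM, with Fap at 1.06 ± 0.39, Pdgfra at 0.31 ± 0.14 and Dcn at -0.70 ± 0.41. Skeletal muscle markers were positive in 7 of the 8 tested, with a median of 2.02, and fat cell markers in 3 of the 3 tested, with a median of 1.22 and sums of 10.8 to 21.3 CPM against 11.2 to 82.7 CPM. Ckm had 10, 9 and 4 counts in model and 210, 4 and 767 in DMDD liposome, and Fabp4 had 263, 187 and 144 against 403, 766 and 155. Epidermis markers summed to 225 CPM in model replicate 2 and to between 5.37 and 6.95 CPM in the other 5 libraries, and the 2 tested were Krt10 at -1.60 ± 0.81 and Sbsn at -0.86 ± 0.57. The part of these cell types in the values of the VEGF and angiopoietin genes was not tested.

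Over the 6 libraries the centred log2 CPM of Vegfa, whose SD was 0.63, was nearest to those of Bhlhe40 (root mean square distance 0.13), Chst11 (0.15), Lilr4b (0.15), Fam131b (0.16) and Mt1 (0.17), among 12498 genes. For Kdr, with an SD of 0.44, the nearest were Dennd2a (0.07), Zc4h2 (0.10), Pabpn1 (0.12), Hist1h2be (0.12) and Tmeff1 (0.13). These distances are a description and were not tested.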
